A study of Homo sapiens with 24 samples.

Results

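Nuclear genes for the subunits of the oxidative phosphorylation complexes were followed across 4 RNA sequencing tables from human cell lines that carry extra chromosomes. Genes were taken by name, as those starting with NDUFA, NDUFB, NDUFC, NDUFS or NDUFV and a digit, with UQCR, with COX and a digit from 4 to 8, or with ATP5, together with SDHA, SDHB, SDHC and SDHD. The rule caught 83 names of 16742 genes listed in at least 1 table, of which 2 were pseudogenes and were dropped. Of the remaining 81 genes, 79 had a mean signal of at least 10 in 1 table or more and 77 had it in all 4 tables. ATP5S, ATP5SL and COX4NB were caught by their older names but encode no subunit, which left 74 subunits, with 36 in complex I, 4 in complex II, 8 in complex III, 12 in complex IV and 14 in complex V.

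Each table summarises 3 libraries of 1 aneuploid line and 3 of its parental line, from total RNA. HCT116 is a near-diploid colon carcinoma line and RPE1 is a retinal pigment epithelial line immortalized with hTERT, and an asterisk marks cells that express the histone fusion H2B-GFP. The tables were HCT116 5/4 (4 copies of chromosome 5) with HCT116, HCT116* 8/3 c7 (3 copies of chromosome 8) with HCT116*, RPE1 5/3 12/3 (3 copies of chromosomes 5 and 12) with RPE1, and RPE1* 21/3 (3 copies of chromosome 21) with RPE1*. The study describes the parental lines as diploid, so 2 copies of these chromosomes were taken for them. HCT116 and HCT116 5/4 came from another laboratory, while HCT116* was made from HCT116 of a culture collection. RPE1 and RPE1* both came from 1 further laboratory. In the other 3 lines the extra chromosome was introduced by microcell transfer, except that chromosome 12 was gained spontaneously. HCT116* 8/3 c7 is 1 clone, so a change particular to a clone cannot be told apart from one of the extra chromosome. The value used is the mean signal, the authors' mean of normalised read counts over the 6 libraries of a table. It has no standard deviation and does not separate the aneuploid line from its parent, so all comparisons here are between tables and none has a test. Because the tables were normalised separately, levels set across them were first brought to 1 scale by the median ratio over the 11939 genes with a mean signal of at least 10 in all 4 tables. Where 2 values are given for HCT116, the HCT116 5/4 table comes first, and where 2 are given for RPE1, the RPE1 5/3 12/3 table comes first.

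Oxidative phosphorylation couples the oxidation of NADH and succinate to ATP synthesis at the mitochondrial inner membrane. Complexes I and II pass electrons to ubiquinone, complex III passes them to cytochrome c, complex IV reduces oxygen, and complex V, the ATP synthase, uses the proton gradient built by complexes I, III and IV. Apart from complex II, each complex joins subunits encoded in the mitochondrial genome with the nuclear-encoded subunits described here. Carcinoma lines and immortalized epithelial lines both carry the whole system but can differ in how far they rely on it.

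The labelled cell types were checked against marker genes first. The epithelial markers EPCAM, CDH1, KRT19 and CDX2 were listed in both HCT116 tables, for example at 3898 and 5106 for EPCAM and 313 and 352 for CDX2. EPCAM was at 4.71 in the RPE1 5/3 12/3 table and not listed in the RPE1* 21/3 table. Other colon markers were low or absent in HCT116. KRT20 was at 37.9 and 45.8, LGALS4 was at 2.09 in the HCT116* 8/3 c7 table only, and CDX1, VIL1 and CEACAM5 were listed in no table. Of 11 colon epithelium markers, 7 and 8 were listed in the HCT116 tables and 4 and 3 in the RPE1 tables, and their summed signal was 97179 to 107856 in HCT116 and 31683 to 36525 in RPE1, where KRT8 and KRT18 made up nearly all of it. All 6 markers of adherent mesenchymal-type culture were listed in both RPE1 tables, with VIM at 173038 and 133369 against 447 and 95.5 in the HCT116 tables. COL1A2 was low in RPE1, at 4.34 and 10.6. COL1A1 was at 3650 and 4214 in RPE1 and also had signal in HCT116, at 642 and 762. Of 8 genes that define retinal pigment epithelium, TYR and TYRP1 were listed in no table and RPE65 was higher in the HCT116 tables (267 and 174) than in the RPE1 tables (10.2 and 5.55). PMEL was higher in HCT116 as well (90.3 and 123, against 17.6 and 18.0), and LRAT had 110 and 145 in HCT116 and was listed at 16.3 in the RPE1* 21/3 table only. The other markers had the opposite direction, with MITF at 1420 and 1362 in RPE1 against 62.7 and 55.7 in HCT116, BEST1 at 42.2 and 50.0 against 6.97 and 2.36, and RLBP1 at 32.0 and 5.77 in RPE1 and not listed in HCT116. With 2 of the 8 markers absent and the rest divided, the line is called RPE1 by its name.

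The 74 subunits together held 0.850% of the summed signal in the HCT116 5/4 table and 0.928% in the HCT116* 8/3 c7 table, against 0.703% in the RPE1 5/3 12/3 table and 0.621% in the RPE1* 21/3 table. Complex V was the largest part in each table, from 0.220% in RPE1* 21/3 to 0.339% in HCT116* 8/3 c7, with 14 subunits against 36 in complex I. Complex I held 0.177% to 0.251%, complex IV 0.110% to 0.162%, complex III 0.0797% to 0.124% and complex II 0.0343% to 0.0519%. All complexes thus had a smaller share in both RPE1 tables than in both HCT116 tables. So did 56.6% of the genes with a mean signal of at least 10 in every table. The median log2 difference in share, RPE1 minus HCT116, was −0.35 over these genes and −0.33 over the subunits. A lower share in RPE1 is thus not particular to the subunits. The shares depend on what else is in the sum. Without the 100 highest genes, the 74 subunits held 1.04% and 1.14% in HCT116 and 0.918% and 0.809% in RPE1, so both RPE1 tables still lay lower.

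**Figure D1:**
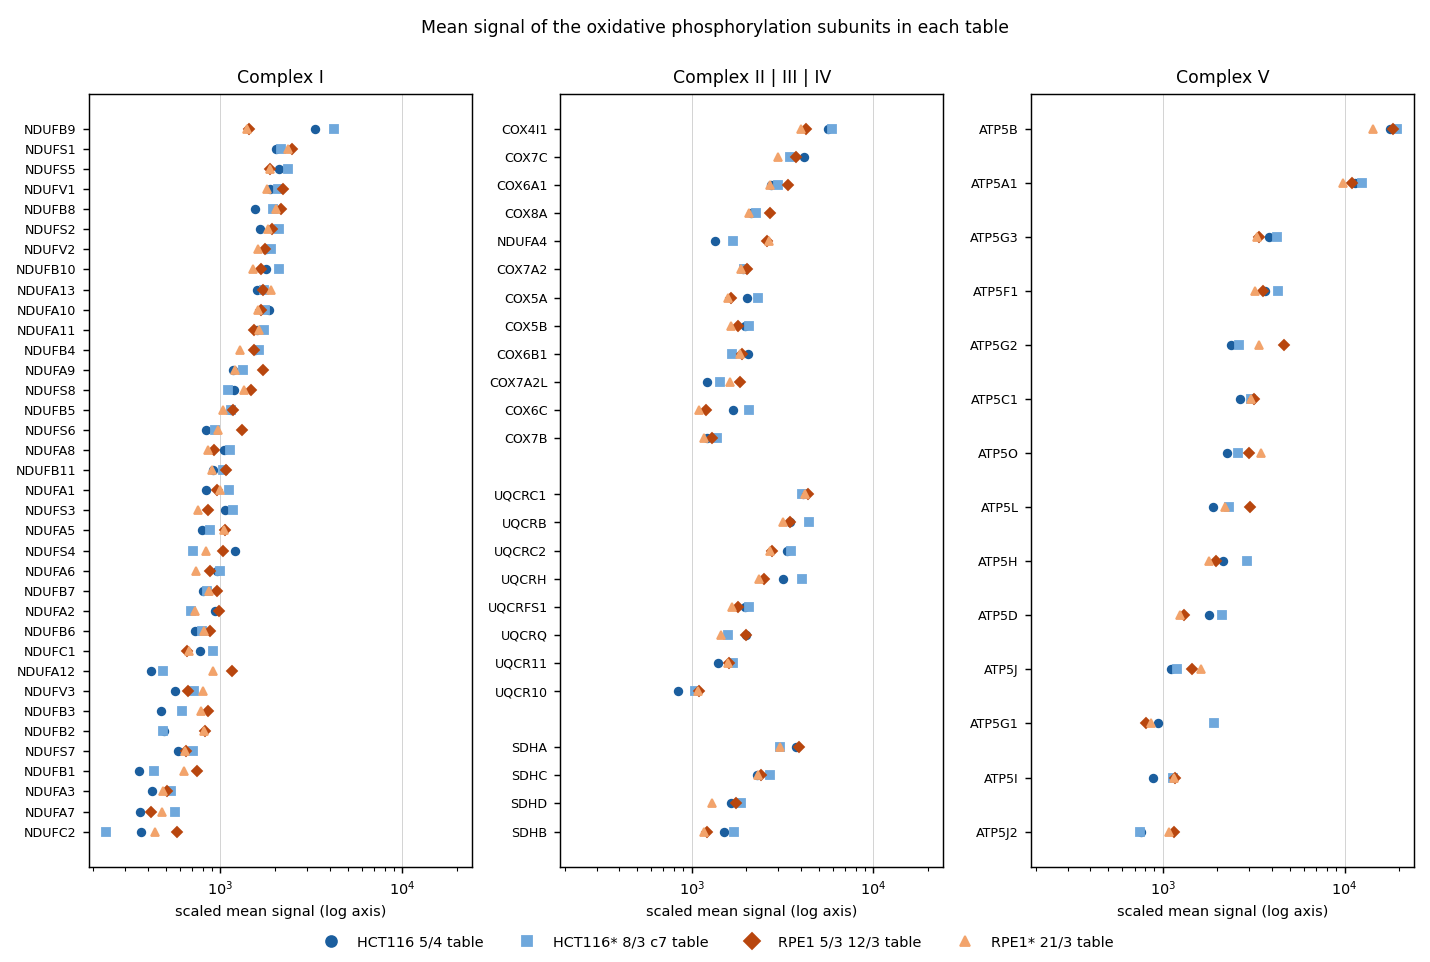
Scaled mean signal of each of the 74 subunits (horizontal log axis) in the 4 tables, with 1 row per subunit and 1 marker per table, grouped by complex. ATP5B lies at the right in every table, from 14266 to 19442, and the HCT116 and RPE1 markers are clearly apart for NDUFB9, NDUFA12, NDUFB2 and NDUFA4.

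Levels of different genes were compared per kilobase of transcript. On this scale the subunits lay far above a typical gene, with a median of 1522 and 1668 per kilobase in the HCT116 tables and 1672 and 1506 in the RPE1 tables, against 199, 198, 205 and 208 over all genes with a mean signal of at least 10 in every table. ATP5B, the catalytic beta subunit of the F1 head of ATP synthase, was highest with a mean of 9960 per kilobase over the tables. ATP5F1, a subunit of the peripheral stalk that holds F1 in place, was the lowest subunit of complex V at 1397. The 7 core subunits of complex I, which carry its electron path, had medians of 1135 to 1319 per kilobase, and its 29 accessory subunits had medians of 1123 to 1737.

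NDUFS5, an accessory subunit of complex I, was the highest of that complex at 4143 per kilobase and NDUFV3, an accessory subunit at the NADH-oxidising arm, the lowest at 120. In complex III, UQCRH, the hinge protein next to cytochrome c1, had 5635 and UQCRB 431, and in complex IV, COX4I1 had 6464 and COX7B 518. The low values of NDUFV3 and UQCRB go with MANE Select transcripts of 5725 and 8459 bases. With the shortest coding transcript in place of this length, UQCRB became the highest subunit of complex III, and COX7C and NDUFA4 became the ends of complex IV, so only ATP5B, SDHC and NDUFV3 kept their place at an end of their complex under each of the 3 length choices. The order of the subunits was much the same in all tables, with a Spearman correlation over the 74 subunits of 0.97 between the HCT116 tables, 0.99 between the RPE1 tables and 0.90 to 0.92 between the cell types. The points share their transcript lengths, and no p-value is given.

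Complex II has no mitochondrially encoded subunit, so its 4 genes show the whole complex. SDHA and SDHB form the catalytic part that oxidises succinate, and SDHC and SDHD anchor it in the membrane. The means per kilobase were 1283 for SDHA, 1381 for SDHB, 1856 for SDHC and 1225 for SDHD, and the highest was 1.52 times the lowest. In complexes I, III, IV and V the same ratio was 34.6, 13.1, 12.5 and 7.13. Complex II thus had the lowest ratio of the 5 on this scale, although with the shortest coding transcripts its ratio was 4.76. It also has the fewest subunits, and a ratio of highest to lowest tends to grow with their number, so evenness was not compared at equal size.

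Because the subunits were at high and similar levels in lines of different origin, their upstream sequences were read for 3 short motifs long linked to these genes. NRF1 is a transcription factor named for its role at respiratory genes, the ETS core is the DNA site of factors such as GABPA, and YY1 binds a core that often lies at the start of transcription. In the RefSeq promoter table for GRCh38.p14, 61 of the 74 subunits had an entry, and the 250 bases before the transcription start were searched on both strands. The NRF1 core GCATGCGC was present in 12 of 61 subunits (19.7%), against 2.81% of all 27305 promoters and 5.12% of 9332 promoters of genes with a mean signal of at least 10 in every table. The ETS core CCGGAAGT was present in 9 (14.8%), against 3.64% and 7.62%, and the YY1 core AAGATGGCG in 1 (1.64%), against 0.641% and 1.14%. The motifs do not overlap each other in letters, and where an NRF1 core is preceded by GC the same place matches on both strands.

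The 5 upstream sequences below are examples. COX5B and SDHD held both the NRF1 and the ETS core, and ATP5J held the NRF1 core and the 1 YY1 core. ATP5G2 and NDUFA12 had more signal in RPE1 than in HCT116, with log2 differences of 0.68 and 1.19. NDUFB2, at 0.75, also had an entry and held none of the 3 motifs, but is not shown. Each of the 5 sequences runs 5′ to 3′ on the strand of its gene up to the base before the transcription start, with matched motifs in capitals. They lie at chr2:97645812-97646061 (plus strand), chr11:112086623-112086872 (plus), chr21:25735055-25735304 (minus), chr12:53676084-53676333 (minus) and chr12:95003698-95003947 (minus), in this order, on GRCh38.p14.
COX5B: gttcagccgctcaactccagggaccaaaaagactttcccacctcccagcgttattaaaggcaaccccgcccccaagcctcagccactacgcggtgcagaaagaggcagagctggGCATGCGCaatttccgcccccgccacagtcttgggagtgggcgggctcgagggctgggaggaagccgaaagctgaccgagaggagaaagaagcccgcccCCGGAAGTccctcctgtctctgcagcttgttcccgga
SDHD: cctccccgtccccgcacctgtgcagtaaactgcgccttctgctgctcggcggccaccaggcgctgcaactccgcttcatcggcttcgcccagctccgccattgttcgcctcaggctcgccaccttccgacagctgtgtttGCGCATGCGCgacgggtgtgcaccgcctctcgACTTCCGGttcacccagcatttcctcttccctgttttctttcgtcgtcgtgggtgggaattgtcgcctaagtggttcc
ATP5J: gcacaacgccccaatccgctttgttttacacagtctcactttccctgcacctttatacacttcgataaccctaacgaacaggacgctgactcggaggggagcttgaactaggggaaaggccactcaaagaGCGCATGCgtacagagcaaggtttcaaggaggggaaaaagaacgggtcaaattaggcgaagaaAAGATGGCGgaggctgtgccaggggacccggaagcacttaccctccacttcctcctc
ATP5G2: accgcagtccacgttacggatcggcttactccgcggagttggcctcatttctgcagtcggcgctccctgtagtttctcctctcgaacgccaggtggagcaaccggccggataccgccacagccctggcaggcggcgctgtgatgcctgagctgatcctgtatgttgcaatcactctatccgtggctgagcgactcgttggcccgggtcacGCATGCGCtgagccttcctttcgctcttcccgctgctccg
NDUFA12: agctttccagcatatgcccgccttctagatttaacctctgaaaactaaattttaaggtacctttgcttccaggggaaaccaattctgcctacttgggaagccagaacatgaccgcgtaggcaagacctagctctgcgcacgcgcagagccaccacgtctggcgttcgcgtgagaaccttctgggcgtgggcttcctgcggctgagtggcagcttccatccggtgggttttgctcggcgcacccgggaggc
The NDUFA12 sequence has no capitals, which says only that these exact letters are not in this window. It holds GCACGCGC, which differs from the NRF1 core only at the T. Such variants were not counted in any promoter. By complex, the NRF1 core was in 4 of 31 subunits of complex I, 2 of 3 of complex II, 0 of 7 of complex III, 2 of 10 of complex IV and 4 of 10 of complex V. A match of letters is a description and not a binding site.

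The 2 cell types were compared next, as the RPE1 tables against the HCT116 tables on the common scale. A gene was counted as not overlapping if both tables of one cell type lay above both tables of the other. Of the 74 subunits, 22 (29.7%) lay higher in RPE1, against 40.0% of the 11939 genes, and 24 (32.4%) lay higher in HCT116, against 39.6% of genes. The median log2 difference, RPE1 minus HCT116, was 0.01 over the subunits and −0.0034 over all genes. By complex it was 0.02 for complex I, −0.14 for complex II, −0.14 for complex III, −0.03 for complex IV and −0.04 for complex V. In these medians, differences of opposite sign cancel. Without regard to sign, the median size was 0.20, 0.14, 0.21, 0.21 and 0.35 for complexes I to V. The median distance between the 2 tables of one cell type was 0.18, 0.23, 0.16, 0.18 and 0.19. Only complex II had a size below this distance. When the tables were scaled by their summed signal, the median signed difference of all genes moved to −0.35. That of the subunits moved to −0.33 and those of the complexes to between −0.48 and −0.33. Without overlap, 7 subunits then lay higher in RPE1, against 25.9% of all genes, and 49 higher in HCT116, against 56.6%. The direction of the whole system between the cell types thus depends on the scale.

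The subunits differed less between the cell types than genes in general. The size of the log2 difference was under 0.6 for 63 of 74 subunits (85.1%), against 51.5% of all genes, with a median size of 0.22 against 0.58. Highly expressed genes differed less in general, and among the 3113 genes with a mean signal of at least 1000 in every table, 66.2% were under 0.6, as were 40 of 44 such subunits (90.9%).

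Only 4 subunits were set apart, meaning that the smallest of the 4 differences between an RPE1 and an HCT116 table was over 0.6 on the log2 scale. NDUFA12, NDUFB2 and NDUFA4 were higher in RPE1, which is 3 of 74 against 18.5% of all genes, and NDUFB9 was higher in HCT116, which is 1 of 74 against 17.0%. NDUFA12, an accessory subunit of complex I (chr12:95289073-95397524, minus strand, GRCh37), had a scaled mean signal of 414 and 484 in the HCT116 tables and of 1155 and 905 in the RPE1 tables. It was 2.28-fold higher in RPE1, and the higher of its RPE1 values was in the RPE1 5/3 12/3 table, whose aneuploid line has an extra chromosome 12. The value in RPE1* 21/3, where chromosome 12 was not gained, was still above both HCT116 values.

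NDUFB2, an accessory subunit of the membrane arm of complex I (chr7:140390577-140422590, plus strand), had signals of 488 and 485 in HCT116 and 822 and 814 in RPE1, the closest agreement within a cell type of these 4 genes. NDUFA4 (chr7:10971570-10979780, minus strand) was first described in complex I and is now assigned to complex IV. Its signals were 1345 and 1683 in HCT116 and 2593 and 2660 in RPE1, or 1.75-fold higher in RPE1. Both genes lie on chromosome 7. The median difference of the genes within 5 Mb was −0.30 over 31 neighbours of NDUFB2 (quartiles −0.77 and 0.41), −0.04 over 23 neighbours of NDUFA4 (−0.59 and 0.71) and 0.46 over 24 neighbours of NDUFA12 (−0.10 and 1.23), so neighbours differed in both directions. Copy number of these regions was not tested. Exons of NDUFB2 overlap those of ADCK2 on the same strand and of another gene on the opposite strand, and no strand option is stated for the counting, so its count is uncertain. Scaled by summed signal, the smallest of the 4 differences was 0.56 for NDUFA12, 0.38 for NDUFB2 and 0.29 for NDUFA4, so each stayed higher in RPE1 but below the threshold of 0.6.

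NDUFB9, an accessory subunit of the membrane arm of complex I (chr8:125551342-125592889, plus strand), had signals of 3321 and 4230 in HCT116 and 1441 and 1405 in RPE1, or 2.63-fold higher in HCT116. Its exons overlap TATDN1 and MTSS1 on the opposite strand. Its 26 neighbours within 5 Mb had a median difference of −0.82, and the 388 genes of chromosome 8 had one of −0.45, the lowest of all chromosomes. The other subunits on chromosome 8 had the same direction, with COX6C of complex IV at 1686 and 2059 in HCT116 against 1196 and 1097 in RPE1, and UQCRB of complex III at 3483 and 4402 against 3489 and 3200. The HCT116 5/4 table, in which chromosome 8 was not gained, also lay above both RPE1 tables for NDUFB9 and COX6C, while UQCRB overlapped. Copy number of chromosome 8 regions in the parental lines was not tested. CYC1, the cytochrome c1 subunit of complex III that the naming rule does not catch, lies on the same chromosome and had 4046 and 4506 in HCT116 against 1604 and 1578 in RPE1.

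**Figure D2:**
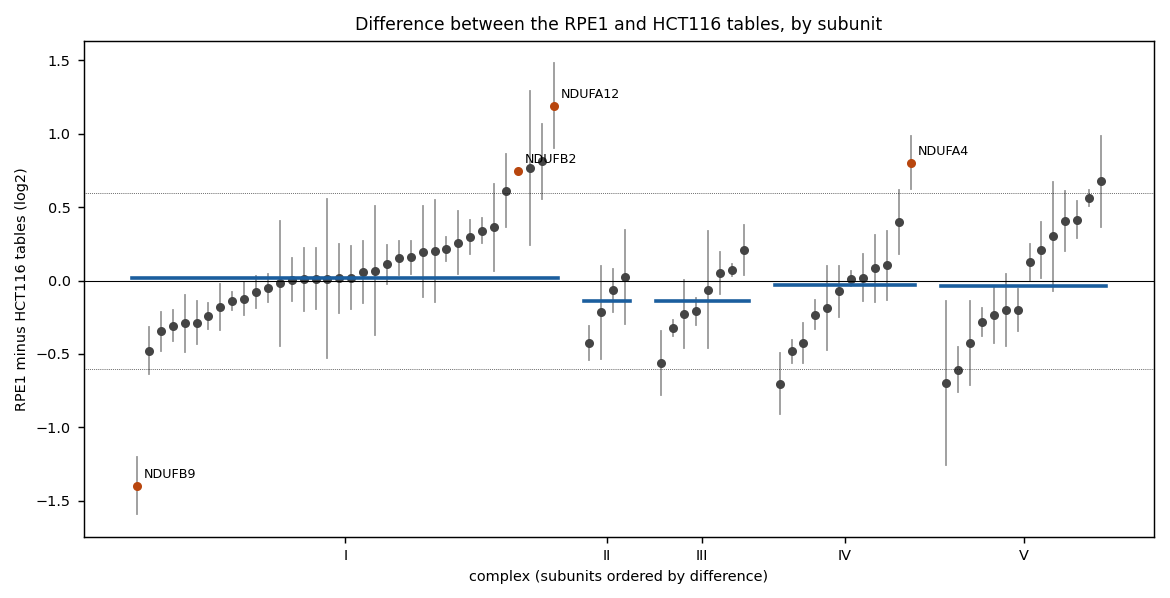
Log2 difference of the scaled mean signal, RPE1 minus HCT116 tables, for each of the 74 subunits ordered within its complex. Points are the difference of the means, grey lines run from the smallest to the largest of the 4 differences between single tables, blue lines are medians per complex, and dotted lines mark 0.6. The medians lie between −0.14 and 0.02, and only the 4 named subunits have a whole grey line beyond 0.6.

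With 0.3 in place of 0.6, 7 of 74 subunits were set apart in each direction, against 27.4% of all genes with RPE1 higher and 26.7% with HCT116 higher. Those higher in RPE1 added NDUFB1 (356 and 430 in HCT116, 745 and 633 in RPE1) and NDUFB3 (472 and 611, 856 and 785) of complex I, and ATP5J2 (760 and 751, 1154 and 1081) and ATP5G2 of complex V. Those higher in HCT116 added COX6C, COX4I1, ATP5D, UQCRH, NDUFS3 and SDHB. Subunits of one complex thus differed in both directions, and in complex V 6 of 14 subunits lay higher in RPE1 and 6 in HCT116 without overlap, close to the 40.0% and 39.6% of all genes. The membrane part of complex V (ATP5I, ATP5J2 and ATP5L) had a median difference of 0.30 (from 0.21 to 0.56). The F1 head (ATP5A1, ATP5B, ATP5C1 and ATP5D) had one of −0.20 (−0.61 to 0.13). The c ring had −0.28 (−0.70 to 0.68) and the peripheral stalk 0.09 (−0.42 to 0.41). ATP5L overlapped between the cell types, and exons of ATP5J2 overlap those of PTCD1 on the same strand.

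Several subunits have paralogues with tissue-restricted use, and the tables held almost only the forms found in most tissues. COX4I2, COX6A2, COX7A1, COX7B2 and UQCRHL were listed in no table. COX6B2, the testis form of COX6B1, had signals of 17.4 and 33.4 in HCT116 and 6.85 and 4.54 in RPE1, or 0.62% of the COX6B signal per kilobase at most. NDUFA4L2, the hypoxia-linked paralogue of NDUFA4, lay between 10.3 and 17.6, and COX8C had 1.78 in the HCT116* 8/3 c7 table only. COX7A2 made up 84.3% to 88.7% of the COX7A signal per kilobase and COX7A2L, which has a role in joining complexes III and IV, the rest. ATP5E, the epsilon subunit of F1, was the 1 ubiquitous subunit under 10 everywhere, at 4.79 and 8.87 in HCT116, 4.95 in the RPE1 5/3 12/3 table and not listed in the RPE1* 21/3 table. Its exons overlap TUBB1 on the opposite strand and it has 2 annotated pseudogenes, so its count is uncertain.

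The c ring of ATP synthase is made of 1 mature protein that 3 genes encode with different import sequences, and here the mixture of genes differed between the tables. ATP5G1 had signals of 947 and 1919 in HCT116 and 804 and 860 in RPE1. ATP5G2 had 2361 and 2622 in HCT116 and 4676 and 3380 in RPE1, and ATP5G3 had 3856 and 4266 in HCT116 and 3386 and 3284 in RPE1. ATP5G2 lies on chromosome 12, which was gained in RPE1 5/3 12/3. Its value in the RPE1* 21/3 table, where chromosome 12 was not gained, was also above both HCT116 values. The ATP5G1 value in the HCT116* 8/3 c7 table stood apart from the other 3 tables. Per kilobase, ATP5G2 made up 55.8% and 47.3% of the c ring signal in HCT116 and 74.3% and 67.3% in RPE1, and ATP5G1 21.9%, 33.9%, 12.5% and 16.8%. These shares rest on lengths of 646, 632 and 2587 bases for ATP5G1, ATP5G2 and ATP5G3. Before division by length, ATP5G3 had the most signal of the 3 in both HCT116 tables. ATP5G1 and ATP5G2 have 8 and 5 annotated pseudogenes, whose near-identical sequence makes their counts less certain.

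**Figure D3:**
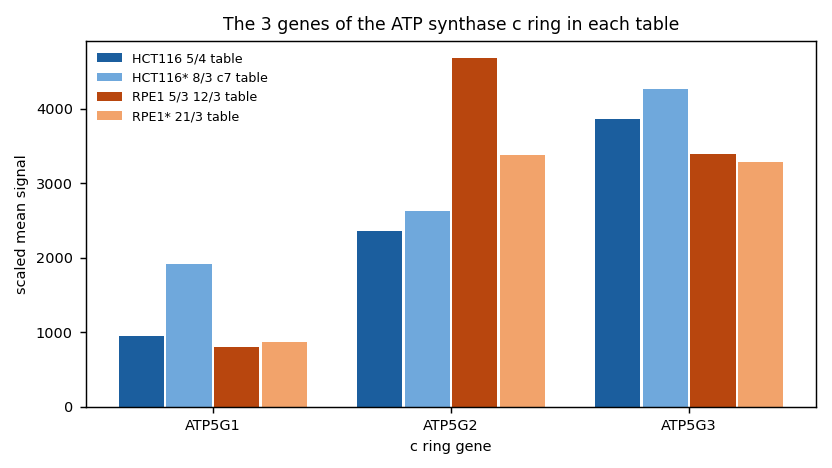
Scaled mean signal (linear axis from 0) of ATP5G1, ATP5G2 and ATP5G3 in the 4 tables, 1 bar per table with no error because each is 1 mean. The ATP5G2 bars are taller in both RPE1 tables (4676 and 3380) than in both HCT116 tables, and the ATP5G1 bar of the HCT116* 8/3 c7 table (1919) is the tallest of its group.

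The gained chromosomes were examined between the 2 tables of one cell type, where 17 of the 74 subunits lie on chromosome 5, 8, 12 or 21. Each table averages the aneuploid line with its parent, so 4 copies of chromosome 5 in 3 of the 6 libraries would raise a gene by 0.58 on the log2 scale if its signal followed the copies, and 3 copies would raise it by 0.32. Both pairs of tables also differ in H2B-GFP and in clone, and the HCT116 pair differs in the source of the cultures. None of these can be told apart from the extra chromosomes. Here the scale was set on genes outside the gained chromosomes of each pair.

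In the HCT116 5/4 table minus the HCT116* 8/3 c7 table, 5 of 6 chromosome 5 subunits were above 0, as were 80.1% of the genes there. The differences were 0.80 for NDUFS4, 0.46 for NDUFA2, 0.36 for UQCRQ, 0.31 for SDHA, 0.28 for COX7C and −0.13 for NDUFS6. Their median of 0.34 compares with 0.46 for the 557 genes of chromosome 5. All 3 chromosome 8 subunits were below 0, at −0.33 for NDUFB9, −0.31 for UQCRB and −0.27 for COX6C. Their median was −0.31, beside −0.14 for the 437 genes there and −0.32 by copies. Of these genes, 34.8% were above 0. NDUFS6, an accessory subunit near the NADH-oxidising arm of complex I, was the 1 subunit on a gained chromosome whose difference had the opposite sign to its copies.

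In the RPE1 5/3 12/3 table minus the RPE1* 21/3 table, all 6 chromosome 5 subunits were above 0, from 0.35 for NDUFS4 to 0.50 for UQCRQ, with a median of 0.43 beside 0.31 for the 590 genes there. NDUFS6 was at 0.48 in this pair. All 5 chromosome 12 subunits were above 0, at 0.54 for NDUFA9, 0.51 for ATP5G2, 0.41 for ATP5B, 0.39 for NDUFA12 and 0.38 for COX6A1, with a median of 0.41 beside 0.31 for 663 genes. The 3 chromosome 21 subunits were below 0, at −0.24 for NDUFV3, −0.18 for ATP5O and −0.12 for ATP5J, with a median of −0.18 beside −0.38 for 120 genes. The shares of all genes above 0 were 81.9% on chromosome 5, 84.3% on chromosome 12 and 6.67% on chromosome 21. In this pair the subunits on each of the 3 chromosomes thus had a higher median difference than the genes there.

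**Figure D4:**
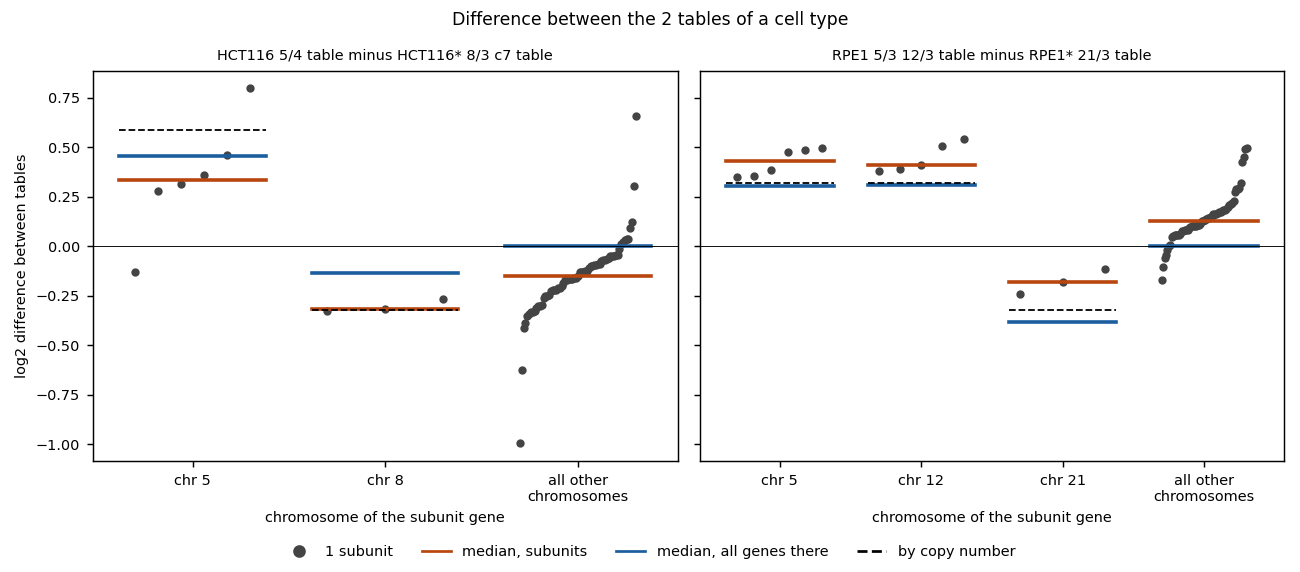
Log2 difference between the 2 tables of HCT116 (left) and of RPE1 (right) for each subunit, by the chromosome of its gene. Points are subunits, orange lines their medians, blue lines the medians of all genes on those chromosomes, and dashed lines the value if signal followed copy number. Subunits on all other chromosomes have a median of −0.15 in HCT116 and 0.13 in RPE1, while all genes there are at 0 by the scaling.

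The subunits outside the gained chromosomes also lay mostly on one side between tables. In HCT116, 9 of 65 were above 0 and 56 below, with a median of −0.15, while 50.8% of 13570 genes were above 0 in this comparison. In RPE1, 55 of 60 were above 0, with a median of 0.13, while 52.8% of 12923 genes were. The shift ran through the complexes, with 27 of 32 subunits of complex I, 3 of 3 of complex II, 5 of 6 of complex III, 8 of 10 of complex IV and 13 of 14 of complex V below 0 in HCT116. In RPE1, 26 of 30, 3 of 3, 7 of 7, 10 of 10 and 9 of 10 were above 0. Of the 57 subunits on none of the 4 chromosomes, 43 were below 0 in HCT116 and above 0 in RPE1. The share of all genes with both signs was not computed. Most subunits had each sign taken alone, so this count adds little to the counts above. The differences are between 2 pooled values per gene, the subunits are not independent, and whether the aneuploid or the parental libraries carry the shift cannot be told from these means.

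Read against these other subunits instead of all genes, the subunits on the gained chromosomes lay closer to the copy number. The median difference from the other subunits was 0.48 for chromosome 5 and −0.17 for chromosome 8 in HCT116, and 0.30 for chromosome 5, 0.28 for chromosome 12 and −0.31 for chromosome 21 in RPE1. The values by copies are 0.58, −0.32, 0.32, 0.32 and −0.32, so that chromosome 8 was the exception. Outside the gained chromosomes the strongest single values were −0.996 for ATP5G1 and −0.62 for NDUFA7 and 0.66 for NDUFC2, all in HCT116. NDUFC2 exons overlap the readthrough gene NDUFC2-KCTD14, so its reads are uncertain.

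Other genes of the pathway that the naming rule does not catch were followed as lists. Of 13 complex I assembly factors, 5 lay higher in RPE1 and 4 in HCT116, near the 40.0% and 39.6% of all genes, with a median difference of 0.06. Complex II assembly factors (4 genes) had a median of −0.34 and complex III assembly factors (6) one of −0.33. Of 22 complex IV assembly genes with a mean signal of at least 10 in every table, 4 lay higher in RPE1 and 10 in HCT116, beside the same shares of all genes, with a median of −0.13, and LRPPRC, which stabilises mitochondrial mRNAs, was at 7259 and 8537 in HCT116 against 3583 and 3469 in RPE1. The 4 genes for assembly and inhibition of complex V split evenly and had a median of −0.19. NDUFAB1, the mitochondrial acyl carrier protein in complex I, was at 1471 and 1507 in HCT116 and 1152 and 1098 in RPE1, and CYCS, the electron carrier cytochrome c, at 4478 and 4505 against 2395 and 2695.

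Most regulators of mitochondrial genes had more signal in HCT116. Of 11 with a mean signal of at least 10 in every table, 9 lay higher in HCT116, against 39.6% of all genes, and 1 in RPE1, against 40.0%, with a median difference of −0.58. PPARGC1B, a coactivator of mitochondrial biogenesis, had signals of 316 and 521 in HCT116 and 13.2 and 20.6 in RPE1, and POLRMT, the mitochondrial RNA polymerase, 2346 and 2615 against 896 and 922. NRF1 had 544 and 516 against 341 and 328, and GABPA, on chromosome 21, had 1055 and 1067 against 1137 and 1232. PPARGC1A was listed in the RPE1 5/3 12/3 table only, at 8.57. Whether the regulators differ from the subunits was not tested.

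The 3 genes that share the names but encode no subunit were left out of all values above. ATP5S had 80.7 and 70.0 in HCT116 and 147 and 152 in RPE1, ATP5SL 948 and 962 against 819 and 716, and COX4NB, whose gene adjoins COX4I1, 1005 and 1162 against 687 and 717.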

How the data were processed

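RNA sequencing libraries from 8 groups of 3 were summarised by the authors in 4 tables. Per the labels and the methods of the study, reads were trimmed with cutadapt, aligned to hg19 with TopHat2 2.0.10, counted per gene with featureCounts 1.4.3 and normalised with DESeq2. The deposited mean signal (normalised read counts averaged by the authors over 6 libraries) was the only column used. The 5 other columns of each table hold the authors' log2 fold change, its standard error, test statistic, p-value and adjusted p-value, and were not used. Values of single libraries were not analysed here, so their depth is unknown, and no error, interval, paired analysis or test was possible.

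Members and lists were chosen with earlier results of these data known. Named with values were subunits set apart between cell types, the highest and lowest per kilobase of each complex, subunits on chromosomes 5, 8, 12 and 21, paralogue families and SDH genes; others that are named were chosen after their values were seen. Tables were brought to 1 scale by median ratios in Python 3.11.15 with pandas 2.3.3, with a minimum of 10. The scaling and the set-apart call were tested on simulated data in which far fewer genes differed than in these tables. The other steps were not tested in this way. Positions and MANE Select lengths came from GENCODE version 44 on GRCh37, in place of RefSeq lengths; 95.7% to 95.9% of the genes past this minimum were given a position. NDUFB6 has no MANE Select entry there and took its longest transcript. NDUFA4 was placed in complex IV. Of the subunits, 47 have annotated pseudogenes and 21 share exonic sequence with another protein-coding gene. Other scalings, minimums, thresholds, lengths and left-out tables were tried.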

Additional observations from a re-analysis of the deposited data

How the results depend on the processing

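Of 169 alternative settings for 35 values, 121 moved the value by less than a set limit. For shares and for RPE1 minus HCT116 differences, the limit was the distance between the tables of one cell type. For differences between the tables of one cell type, it was set from the range between the quartiles of the subunits. For counts and for ratios of highest to lowest subunit, it was a change of 1.5 times. Scaling by summed signal moved the median RPE1 minus HCT116 difference to −0.33 (complex I), −0.48 (II), −0.48 (III), −0.37 (IV), −0.38 (V) and −0.33 (all subunits), and no rescaling moved it to −0.24, −0.40, −0.39, −0.29, −0.30 and −0.25. Summed-signal scaling left 0 subunits set apart with RPE1 higher and 9 with HCT116 higher. It left 7 and 49 without overlap, against 25.9% and 56.6% of all genes. No rescaling gave 0 set apart and 6 without overlap with RPE1 higher. The share of all genes set apart under these scalings, or without overlap under no rescaling, was not computed, so these counts have no share beside them. A threshold of 0.3 gave 7 in each direction, 1 gave 0 with RPE1 higher, no minimum gave 2 and leaving out chromosomes 5, 8, 12 and 21 gave 0 with HCT116 higher. Without the 100 highest genes, the subunits held 1.04% and 1.14% of the HCT116 tables and 0.918% and 0.809% of the RPE1 tables. Between tables of one cell type, no rescaling gave −0.39 for chromosome 8 subunits, 4 of the other HCT116 subunits above 0, and in RPE1 0.69 for chromosome 5, 0.67 for chromosome 12, 0.39 for other subunits and 0.075 for chromosome 21, which changed sign, because the deposited RPE1 tables differ by 0.27 over all genes. The ratio of highest to lowest subunit per kilobase became 4.76 in complex II and 16.0 in complex V with the shortest transcripts and 13.3 in complex V with the longest. Placing NDUFA4 in complex I and leaving out 1 table at a time moved no complex median beyond the distance between the tables of one cell type. No paired analysis was possible because the tables hold 1 mean per gene and no replicate columns.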
